A study of Mus musculus with 6 samples.

Results

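The genes described here drive the cell from G2 into mitosis or hold it back: 4 cyclins (CCNA2, CCNB1, CCNB2 and CCNF), the kinase CDK1, the 3 CDC25 phosphatases (CDC25A, CDC25B and CDC25C), the inhibitory kinase WEE1 and the anaphase activator CDC20. They were taken by symbol, with earlier results of these data known, and are 10 of the 17144 genes listed in the count tables. All 10 were listed and all 10 passed the filter on low counts that left 12682 genes to test. Messenger RNA was sequenced in 6 samples labelled as the osteosarcoma line SaOS2, 3 with a title starting with C and 3 with D. SaOS2 is a human line, while the organism label names the mouse. The series title names a compound, DDTC(I), but no label gives a dose or a time or says what C and D stand for, so fold changes are D relative to C, and which group received the compound is not assumed.

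CDK1 is the kinase that starts mitosis. It works only when bound to a cyclin A or cyclin B. The kinases WEE1 and PKMYT1 phosphorylate it to keep it off, and CDC25 phosphatases remove those phosphates to turn it on. Exit from mitosis follows when the anaphase-promoting complex (APC/C), directed by CDC20 and later by FZR1, marks the cyclins for destruction. In cycling cells the transcripts of most of these genes rise in G2 and are low in G1, and this timing is imposed by a shared set of factors that includes the MuvB complex, MYBL2 and FOXM1.

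Total counts per sample ranged from 18446443 to 20602771. The D samples differed among themselves with gene length: the slope of a sample's log2 deviation from its group mean on log2 length was 0.17 in D replicate 2 and −0.18 in D replicate 3, against −0.05 to 0.05 in C. The edgeR fits and the differences within gene pairs were therefore also computed without each sample. FPKM levels, ratios, shares and sums and the profile distances used all 6 samples only. ALPL, the osteoblast phosphatase that SaOS2 is known to express strongly, had 8 to 15 counts, and the osteoblast genes SP7, BGLAP and IBSP had at most 2. The bone genes RUNX2 (−1.10), COL1A1 (−2.23) and SPARC (−1.49) were called lower. In the main fit ALPL (0.31) and RB1 (0.42) were not called. RB1 was called higher without D replicate 3 (0.56). Some alternatives that kept all 6 samples also called RB1 higher: length trends removed (0.48), RLE factors (0.44) and DESeq2 (0.43). The counts of ALPL go against the SaOS2 label, and the cells are named here only by it. Of 6 hematopoietic markers, 5 had too few counts to be tested, none above 15 in any sample, and the remaining one, CD68, a lysosomal protein of macrophages, had a log2 fold change of −0.02 ± 0.09 (SE) that was not called. Their summed FPKM (counts scaled by gene length and by the total of the sample) was 295 to 311 in C and 260 to 283 in D. Nearly all of this sum was CD68, at 295 to 309 in C and 259 to 282 in D. Of 5 endothelial markers, 4 were tested and CDH5 and PECAM1 were called lower, with summed FPKM of 3.61 to 4.12 in C and 2.06 to 2.20 in D. The fall of PECAM1 (−0.44) was lost in several fits that left out 1 sample (C replicate 1 or 2 or D replicate 1 or 2; −0.46 to −0.28). Of 6 epithelial markers, 3 were tested and KRT18 (0.90 ± 0.14) and CDH1 (1.87 ± 0.34) were called higher, with summed FPKM of 48.7 to 54.1 in C and 58.7 to 74.8 in D. This sum came almost wholly from KRT18 and from KRT8, which was not called (−0.06). CDH1 had only 8 to 11 counts in C and 20 to 44 in D. The part of these other markers in the results below was not tested.

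All 10 genes were lower in D. By edgeR's quasi-likelihood F test, p-values adjusted by the Benjamini-Hochberg method over all 12682 genes, 10 of 10 were called lower at an adjusted p under 0.05 and 0 higher, while 27.7% of all tested genes were called lower and 26.8% higher. A fall of at least 2-fold was found for 8 of 10, against 10.1% of tested genes, and CDC20 sits at that limit. In all 10 genes every D sample lay below every C sample, which held for 32.1% of tested genes. The 10 genes were chosen with earlier results of these data known, so these counts only describe them. The median log2 fold change was −1.42 for the 10 genes and −0.02 for all tested genes. The fall ran from 7.59-fold for CCNF to 1.81-fold for WEE1. With library size as the only scaling, 4449 genes were called lower and 2586 higher, against 3509 and 3393 here, and the median of all genes was −0.17 and that of the 10 genes −1.58. No label says that the 3 samples of a group were separate cultures, so p-values measure only the spread between these samples. In RNA from a whole culture, fewer cells in G2 and mitosis cannot be told apart from less of each transcript per cell.

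**Figure D1:**
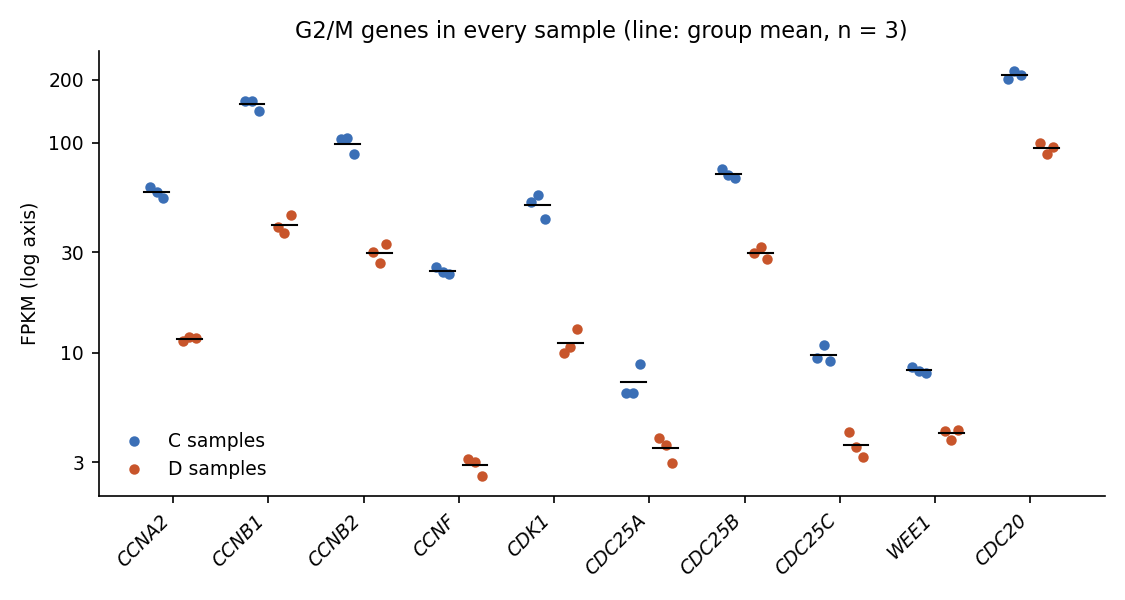
FPKM of the 10 genes in each of the 6 samples, on a log axis, with C samples in blue, D samples in orange and a line at each group mean (n = 3). In every gene the 3 D samples sit below the 3 C samples, with the widest gap for CCNF (23.6 to 25.6 in C, 2.58 to 3.10 in D) and the narrowest for WEE1 and CDC25A.

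The 4 cyclins and CDK1 had the largest falls of the 10 genes, and CCNF the largest of all. CCNF encodes cyclin F, which binds no CDK and instead is the substrate-binding part of a ubiquitin ligase. Its CPM (counts scaled to a common total, with TMM factors between samples) was 103, 97.1 and 94.4 in C replicates 1 to 3 and 13.7, 13.2 and 11.9 in D replicates 1 to 3. Samples of a group were close to each other, and the group means, 98.1 ± 4.32 and 12.9 ± 0.893 (SD, n = 3), were far apart. The log2 fold change was −2.92 ± 0.11 (SE; adjusted p = 2.3e-06, edgeR), and 0.197% of tested genes had a lower one.

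CCNA2, cyclin A2, which serves both S phase with CDK2 and the entry into mitosis with CDK1, had 160, 152 and 142 CPM in C and 32.5, 33.5 and 35.3 in D. The D values were nearly level across the 3 samples. Its log2 fold change was −2.16 ± 0.10 (adjusted p = 4.9e-06, edgeR), which leaves 22.3% of the C level.

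CCNB1, cyclin B1, the main partner of CDK1 at mitotic entry, had 305, 305 and 271 CPM in C and 84.2, 77.5 and 101 in D. By FPKM it was the most abundant of the 4 cyclins in both groups, and D replicate 3 was the highest of the D samples. Its log2 fold change was −1.75 ± 0.13 (adjusted p = 2.1e-05, edgeR). CCNB2, cyclin B2, a second CDK1 partner found at the Golgi, had 147, 149 and 124 CPM in C and 46.7, 41.2 and 53.4 in D, with the same order of samples within D as CCNB1. Its log2 fold change was −1.57 ± 0.13 (adjusted p = 4.3e-05, edgeR).

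CDK1 itself had 169, 183 and 140 CPM in C and 35.2, 37.3 and 48.0 in D. The spread within each group was wider than for CCNA2, with C replicate 3 the lowest of C and D replicate 3 the highest of D, yet the lowest C value stood well above the highest D value. The log2 fold change of −2.03 ± 0.16 (adjusted p = 2.8e-05, edgeR) corresponds to a 4.09-fold fall, close in size to that of its partner CCNA2.

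The phosphatases that activate CDK1 all fell, each by a smaller fold than CDK1, a difference that was not tested. CDC25B, thought to start the activation of CDK1 at the centrosome and by FPKM the most abundant of the 3, had 258, 242 and 234 CPM in C and 114, 120 and 111 in D (log2 fold change −1.09 ± 0.10; adjusted p = 5.3e-05, edgeR). CDC25C, which CDK1 itself activates in a feedback loop, had 17.7, 20.4 and 16.9 CPM in C and 8.63, 7.18 and 6.87 in D (−1.28 ± 0.14; adjusted p = 0.00014, edgeR). CDC25A, which also acts on CDK2 at the start of S phase, had 23.2, 23.3 and 32.03 CPM in C and 15.5, 14.4 and 12.4 in D. C replicate 3 was high for this gene alone of the 10, 0.31 above the C mean on the log2 scale. The log2 fold change of CDC25A was −0.89 ± 0.16, and its adjusted p of 0.0020 (edgeR) was the highest of the 10 genes.

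WEE1, the nuclear kinase that keeps CDK1 off, had the smallest fall with all 6 samples, next to CDC25A. The order of these genes rested on single samples: CDC25A fell less without C replicate 3 (−0.72, against −0.88 for WEE1) or without D replicate 3 (−0.80, against −0.89), and on log2(FPKM + 1) both were at −0.86. It had 34.8, 33.4 and 32.5 CPM in C and 18.9, 16.9 and 19.9 in D. C samples were nearly level, and the groups did not overlap. Its log2 fold change was −0.85 ± 0.11 (adjusted p = 0.00037, edgeR), so 55.4% of the C level remained, and 13.6% of tested genes had a lower log2 fold change.

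CDC20, which directs the APC/C to securin and the B cyclins at anaphase, had 316, 345 and 327 CPM in C and 172, 150 and 171 in D. The groups stood well apart, and D replicate 2 was the lowest. The log2 fold change was −1.001 ± 0.10 (adjusted p = 1.0e-04, edgeR). By FPKM it was the most abundant of the 10 genes in every sample of both groups.

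**Figure D2:**
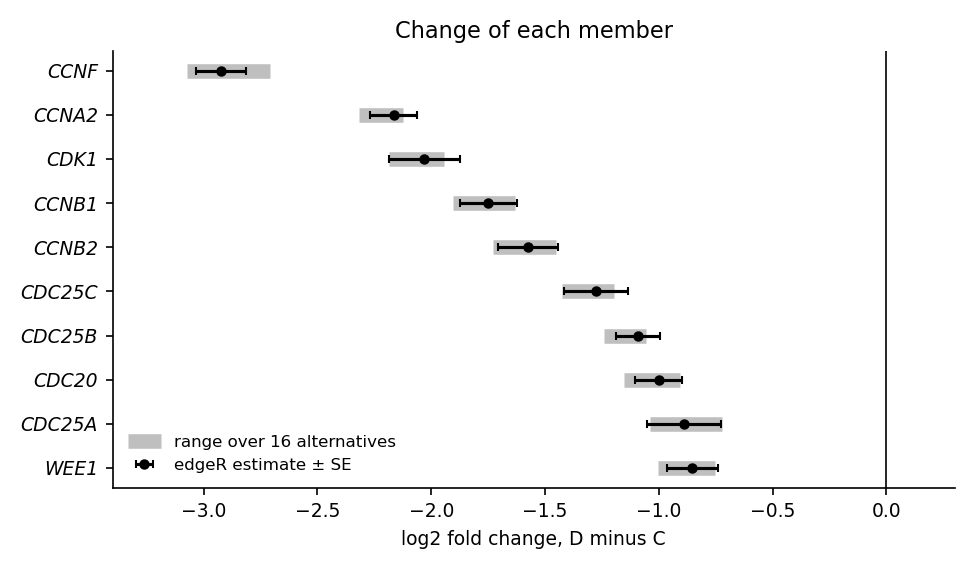
Log2 fold change (D minus C) of each gene with its standard error (black) from the edgeR test on 6 samples, over the range of the same value in 16 alternative analyses (grey). No grey bar reaches 0, and the genes are ordered by this value, from CCNF (−2.92) at the top to WEE1 (−0.85) at the bottom, where the bars of CDC25A and WEE1 overlap.

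Levels of different genes can be compared only per length, by FPKM. In C the order was CDC20 (210 ± 9.18, SD, n = 3), CCNB1 (153 ± 9.79), CCNB2 (99.1 ± 9.42), CDC25B (70.9 ± 3.48), CCNA2 (58.0 ± 3.44), CDK1 (50.8 ± 6.64), CCNF (24.4 ± 1.04), CDC25C (9.78 ± 0.938), WEE1 (8.27 ± 0.273) and CDC25A (7.21 ± 1.43). Neighbours in this order did not overlap except CCNA2 with CDK1 and WEE1 with CDC25A. In D, CDC20 (94.5 ± 5.75) and CCNB1 (40.8 ± 4.23) again led. They were followed by CDC25B (29.97 ± 2.01) and CCNB2 (29.9 ± 2.98), whose samples overlapped, and by CCNA2 (11.6 ± 0.248) and CDK1 (11.2 ± 1.55), which also overlapped. WEE1 (4.12 ± 0.240), CDC25C (3.64 ± 0.518), CDC25A (3.50 ± 0.478) and CCNF (2.90 ± 0.282) came last, each overlapping with its neighbour. CCNF, above CDC25C, WEE1 and CDC25A in C, was thus the lowest of the 10 genes in D. Deposited FPKM is scaled by the total count alone, so falls read from it are somewhat larger than the TMM-scaled ones.

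**Figure D3:**
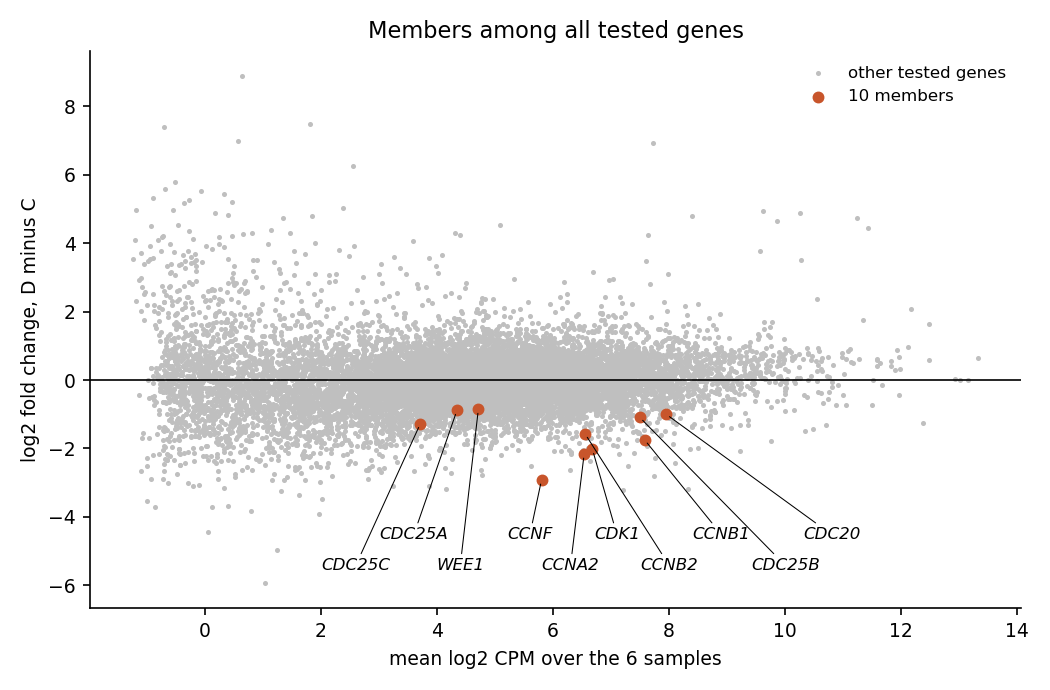
Log2 fold change (D minus C) of all 12682 tested genes against their mean log2 CPM over the 6 samples, with the 10 genes in orange. The cyclins and CDK1 lie along the lower edge of the cloud at their expression level, and CDC25A and WEE1 lie inside it.

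Balance was followed within 10 pairs of genes that work together, against each other or in like roles. It was measured as the difference in log2 CPM between the genes of a pair in each sample. This difference is not per length, so only its change between groups is read. Each pair was compared by an exact 2-sided permutation test over the 6 samples, which cannot go below p = 0.1 with 3 against 3, so no pair could pass an adjusted p of 0.05 over the 10 pairs. In 6 pairs the groups did not overlap, each at this smallest p = 0.1 (exact permutation; 0.17 after Benjamini-Hochberg adjustment). The wide shifts were those of CDK1 against its inhibitor WEE1 and of WEE1 against PKMYT1. CDK1 minus WEE1 was 2.28, 2.45 and 2.11 on the log2 scale in C and 0.89, 1.14 and 1.26 in D, a change of −1.18, and of −1.09 without C replicate 2 or −1.08 without D replicate 1. On the FPKM scale, WEE1 transcripts per CDK1 transcript were 0.164 ± 0.0197 in C and 0.373 ± 0.0497 in D (SD, n = 3).

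Of the 2 inhibitory kinases of CDK1, WEE1 was called and PKMYT1 was not. PKMYT1, the membrane-bound relative of WEE1, had 21.8, 25.4 and 29.7 CPM in C and 30.7, 26.7 and 33.6 in D, values that overlap, and its log2 fold change of 0.24 ± 0.15 was not called (adjusted p = 0.20, edgeR). WEE1 minus PKMYT1 went from 0.67, 0.39 and 0.13 in C to −0.70, −0.66 and −0.75 in D, a change of −1.10 (exact permutation p = 0.1). Which of these shifts was wider depended on the samples used, since WEE1 minus PKMYT1 also stood at −1.10 without C replicate 2 or D replicate 1. Per length, the FPKM of WEE1 was 0.937, 0.772 and 0.643 of that of PKMYT1 in C and 0.362, 0.372 and 0.348 of it in D. The summed FPKM of the 3 CDC25 genes relative to that of WEE1 and PKMYT1 was 5.12, 4.63 and 4.19 in C and 2.38, 2.77 and 2.07 in D.

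Within the cyclins, the log2 difference of CCNA2 to CCNB1 changed by −0.41 and that of CCNB1 to CCNB2 by −0.18, both without overlap between groups. By FPKM, CCNB2 made up 29.6% ± 0.867 of the 4 cyclins in C and 35.1% ± 0.858 in D (SD, n = 3), and CCNF 7.33% ± 0.346 and 3.43% ± 0.564. CCNB1 minus CDK1 averaged 0.85 in C and 1.12 in D, again without overlap (change of 0.28). CCNA2 and CDK1 kept values that overlapped between groups (change of −0.13; exact permutation p = 0.4). That change was −0.21, −0.064 and −0.024 with C replicate 2, C replicate 3 and D replicate 3 left out in turn.

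With all samples, the proportions of the 3 CDC25 genes overlapped between groups. CDC25B made up 80.6% ± 1.73 of their summed FPKM in C and 80.8% ± 1.79 in D (SD, n = 3), and CDC25C 11.1% ± 1.13 and 9.79% ± 1.09. All 3 pairs among them overlapped between groups, each with an exact permutation p = 0.3, which does not show that they changed alike. Without C replicate 3, the sample high for CDC25A, the groups no longer overlapped in either CDC25A pair. The change then went from 0.22 to 0.40 for CDC25A minus CDC25B and from 0.39 to 0.60 for CDC25A minus CDC25C, each at the smallest p = 0.1 (exact permutation; 0.125 adjusted). With other samples left out, CDC25A minus CDC25B fell to as little as 0.098 (without C replicate 1) and was 0.14 without D replicate 1, and CDC25A minus CDC25C was 0.24 without C replicate 2. CDC25B minus CDC25C changed by 0.18, and by 0.092, 0.11 and 0.28 with C replicate 2, D replicate 2 and D replicate 1 left out in turn.

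The 2 activators of the APC/C both fell. FZR1 went from 52.3 ± 1.002 to 37.6 ± 3.50 CPM (log2 fold change −0.48 ± 0.11; adjusted p = 0.0059, edgeR). The difference between CDC20 and FZR1 was 2.62 to 2.70 on the log2 scale in C and 2.04 to 2.26 in D, a change of −0.52 (exact permutation p = 0.1).

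**Figure D4:**
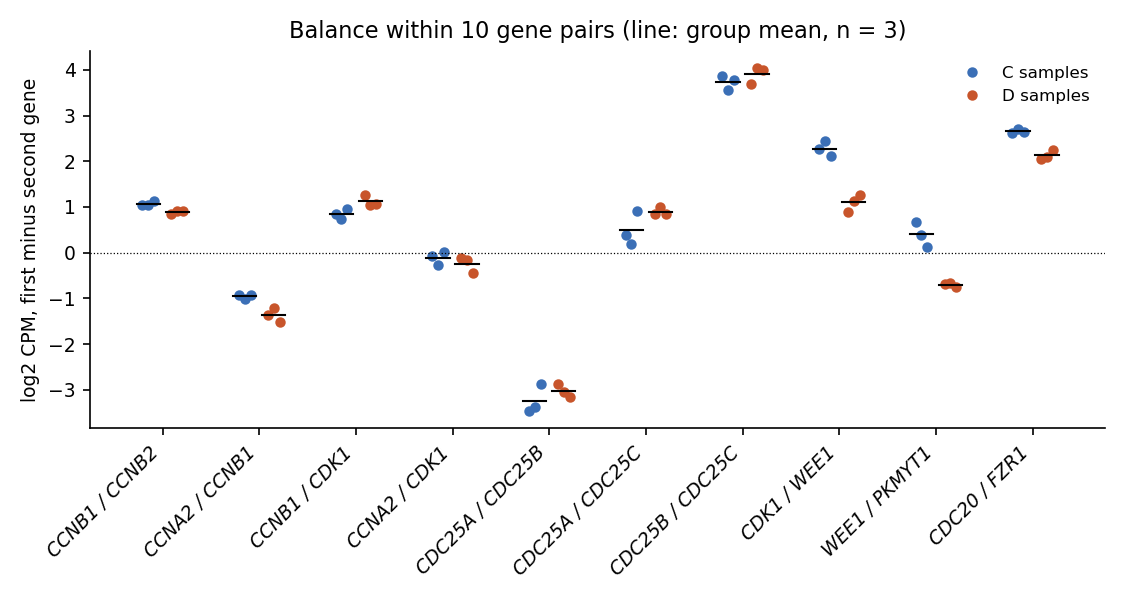
Difference in log2 CPM between the first and the second gene of 10 pairs in each sample, with C samples in blue, D samples in orange and a line at each group mean (n = 3). CDK1 / WEE1 and WEE1 / PKMYT1 show the widest gaps between groups (changes of −1.18 and −1.10), and the 3 CDC25 pairs and CCNA2 / CDK1 overlap with all samples in use.

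Of 23 other genes that act on CDK1, 6 were called lower and 4 higher (median log2 fold change −0.05). The share called lower was near the 27.7% of all tested genes, and the share called higher was below their 26.8%. PLK1, the kinase that activates CDC25C and marks WEE1 for destruction, fell from 358 ± 8.78 to 73.0 ± 7.04 CPM (−2.29 ± 0.11; adjusted p = 4.9e-06, edgeR). AURKA, which activates PLK1, fell by 2.12 ± 0.11 on the log2 scale, and its cofactor BORA by 1.35 ± 0.15. CKS2, a small subunit that docks on CDK1, fell by 0.76. The 4 that rose were GADD45A, a stress-induced protein that can bind CDK1 (154.8 ± 15.9 to 359 ± 50.05 CPM; 1.22 ± 0.13), CDKN1A, the CDK inhibitor p21 (33.6 ± 2.18 to 67.4 ± 13.4 CPM; 1.01 ± 0.15), and the CDK-activating kinase subunits CDK7 (0.64 ± 0.14) and CCNH (0.61 ± 0.16). The call of CCNH was lost without C replicate 3 (0.52).

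Of 26 genes of the APC/C, of the spindle checkpoint and of the SCF ubiquitin ligase, 8 were called lower and 6 higher (median −0.08), shares near the 27.7% and 26.8% of all tested genes. FBXO5, also called EMI1, the inhibitor of the APC/C, fell from 42.3 ± 2.65 to 12.8 ± 1.03 CPM (−1.72 ± 0.12; adjusted p = 1.8e-05, edgeR). SKP2, a substrate receptor of the SCF, fell by 1.56 ± 0.14, and the ubiquitin-conjugating enzymes of the APC/C, UBE2C and UBE2S, fell by 1.56 ± 0.15 and 1.27 ± 0.18. The checkpoint genes BUB1B (−1.14 ± 0.12) and MAD2L1 (−1.09 ± 0.12), whose products hold CDC20 back, fell too. Among the core subunits of the APC/C, ANAPC2, ANAPC10, ANAPC15 and ANAPC16 were called higher, as were CDC16, from 40.4 ± 2.07 to 74.3 ± 9.90 CPM (0.88 ± 0.12), and ANAPC7, from 36.1 ± 1.003 to 64.3 ± 5.96 CPM (0.83 ± 0.11). CDC23 fell by 0.50, and ANAPC1, ANAPC4, ANAPC5, ANAPC11, ANAPC13, CDC26 and CDC27 were not called. Several of these depended on single samples: ANAPC10 lost its call without C replicate 3 (0.44), ANAPC1 (−0.61), CDC27 (−0.43) and ANAPC11 (0.73) gained one without D replicate 2, and ANAPC13 (−0.46) and CDC26 (−0.43) without D replicate 3. Some also depended on the processing. CDC27 was called lower with library size only (−0.45) and on the FPKM scales (−0.47 to −0.45), and ANAPC13 (−0.35) and CDC26 (−0.38) with length trends removed.

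Of 15 genes whose proteins the APC/C destroys, 11 were called lower and 2 higher, against 27.7% and 26.8% of all tested genes, and their median of −1.14 was close to that of the 10 genes. NUSAP1, a spindle protein, fell from 143 ± 8.42 to 44.6 ± 4.15 CPM (−1.68 ± 0.11), and TPX2, the activator of AURKA, from 540 ± 25.1 to 241 ± 4.24 CPM (−1.17 ± 0.10). PTTG1, the securin gene, fell by 1.73 ± 0.19 and RRM2, a ribonucleotide reductase subunit that cyclin F also targets, by 0.58 ± 0.09. The 2 called higher were CDC6, a licensing factor of replication (0.32 ± 0.10), and CDCA5, the sororin gene (0.30 ± 0.10). With library size only their values were 0.17 and 0.14 and neither was called. The call of CDC6 was also lost without C replicate 1 (0.27), C replicate 2 (0.32) or D replicate 1 (0.32), and that of CDCA5 without any 1 C sample (0.28 to 0.31) or D replicate 1 (0.29), so the count called higher was 0 without C replicate 1, C replicate 2 or D replicate 1 and 1 without C replicate 3. A block for the replicate number also gave 0.

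Of 18 transcription factors and cofactors that time these genes, 5 were called lower and 8 higher (median 0.28), against 27.7% and 26.8% of all tested genes. FOXM1, an activator of G2/M genes, fell from 291 ± 18.5 to 177 ± 26.1 CPM (−0.72 ± 0.13; adjusted p = 0.0018, edgeR), and RBL2, the p130 pocket protein of the repressing DREAM complex, from 90.2 ± 4.50 to 52.4 ± 9.51 CPM (−0.78 ± 0.14). The others that fell were NFYB (−0.68), NFYA (−0.45) and TFDP1 (−0.29). When any 1 C sample or D replicate 1 was left out, or the replicate number was a block, 3 genes of the list were called lower, and NFYA and TFDP1 were not. TFDP1 also lost its call when D replicate 3 was left out (−0.23). With all 6 samples it was not called by DESeq2 (−0.27), with RLE factors (−0.26) or without the filter on low counts (−0.30). MYBL2, the partner of MuvB in activation, averaged 152 ± 9.59 CPM over C and 137 ± 7.86 over D without being called (−0.15 ± 0.10), but with library size only its value of −0.30 was. Of the MuvB subunits, LIN54 (1.09 ± 0.26), LIN37 (0.88 ± 0.16) and LIN9 (0.82 ± 0.16) rose, as did E2F4, the E2F of DREAM (0.63 ± 0.12). The other MuvB subunits, LIN52 (0.21) and RBBP4 (0.13), were not called. RBL1, the other pocket protein of DREAM in the list, was called higher, opposite to RBL2 (0.59 ± 0.19), though its values overlapped between groups. NFYC, a CCAAT-binding subunit, rose by 0.78 ± 0.11.

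**Figure D5:**
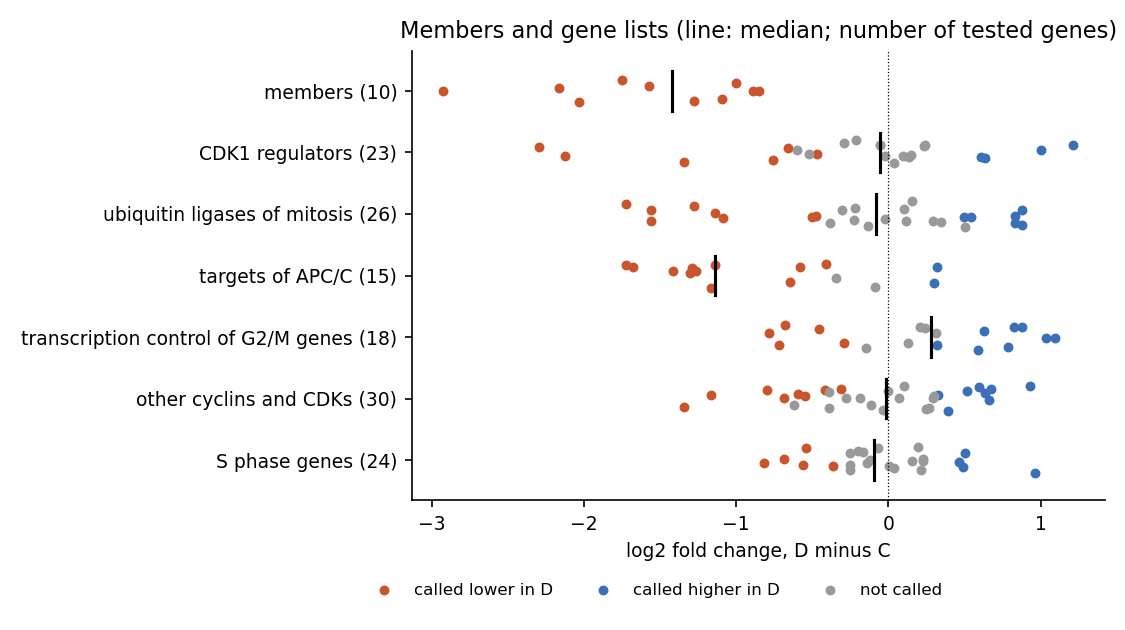
Log2 fold change (D minus C) of the 10 genes and of the tested genes of 6 lists, with the number of tested genes in brackets, coloured by their call and with a line at the median. The members (median −1.42) and the APC/C targets (−1.14) lie to the left, and the other medians lie between −0.09 and 0.28.

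Of 33 cyclins and CDKs outside this set, 30 were tested, with 8 called lower and 8 higher (median −0.02), in both directions near the share of all tested genes (27.7% lower, 26.8% higher). CDK2, the partner of CCNA2 in S phase, fell from 116 ± 2.98 to 51.8 ± 2.81 CPM (−1.17 ± 0.10; adjusted p = 4.1e-05, edgeR), and CDK18 fell by 1.34 ± 0.12. CDK4, a G1 kinase, rose from 201 ± 14.9 to 320 ± 55.4 CPM (0.67 ± 0.14), and CCNC, a cyclin of the Mediator complex, by 0.64 ± 0.13. CCND1, the partner of CDK4, averaged 345 ± 37.1 CPM over C and 303 ± 40.6 over D without being called (−0.19 ± 0.13). Leaving out C replicate 1 or D replicate 1 gave 4 called lower, and leaving out C replicate 2 gave 5. The number called higher was 4 when C replicate 2 was left out and 5 when D replicate 1 was, and with library size only it was 5.

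Of 24 genes of S phase, 5 were called lower and 4 higher (median −0.09), against 27.7% and 26.8% of all tested genes. Those that fell were TYMS, thymidylate synthase (131 ± 3.32 to 74.5 ± 5.11 CPM; −0.82 ± 0.10), the GINS subunit GINS1 (−0.69), the helicase subunits MCM6 (−0.56) and MCM3 (−0.54), and the nuclease FEN1 (−0.37). Those that rose were ORC6 of the origin recognition complex (29.8 ± 1.76 to 58.2 ± 4.004 CPM; 0.97 ± 0.11), CDC45 (0.50), the clamp loader subunit RFC3 (0.49) and MCM7 (0.46). Without D replicate 3, 8 were called lower, and with library size only 9 were. The call of FEN1 was lost without C replicate 2 (−0.33), C replicate 3 (−0.33), D replicate 1 (−0.38) or D replicate 2 (−0.26), and that of CDC45 without C replicate 1 (0.41).

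The genes whose pattern over the 6 samples was most like the mean of the 10, by Euclidean distance between centred log2 CPM profiles among genes whose average log2 CPM was 3 or more, were CHST14, a sulfotransferase (distance 0.073), FAM72B (0.11), NAA80, an actin acetyltransferase (0.11), the carboxypeptidase M gene CPM (0.12) and CDR2 (0.12). Their log2 fold changes lay between −1.63 and −1.47, a narrow range that follows from choosing them by this profile. FAM72B has near-identical copies in the genome, so its reads may be shared with them. Of the 10 genes, CCNB2 (0.24) and CCNB1 (0.33) were nearest to the mean and CCNF (1.68) the farthest from it.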

How the data were processed

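Messenger RNA was measured in 6 samples, 3 titled C and 3 titled D, and groups were taken from the titles. The authors deposited gene counts, whole numbers per gene symbol without normalization, and FPKM values. FPKM equalled the deposited count divided by the sample total and by 1 length per gene for 17144 of 17144 genes (relative tolerance 0.001). The sources used here do not give the aligner, the counting program or the strand setting. The labels name the mouse and the submitters' processing notes name GRCm38 and mm10, but 16 of 17144 symbols matched a mouse symbol in letter case and the rest follow human naming. The mouse reference was therefore used for that match only, and neither coordinates nor sequences are given.

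Counts were filtered with filterByExpr (12682 genes, 99.952% of counts), scaled by TMM and tested D against C with the quasi-likelihood F test of edgeR 4.0.16 in R 4.3.3, group as the only term, Benjamini-Hochberg over all genes, called at an adjusted p under 0.05. A standard error is the log2 fold change divided by the square root of F. A floor of 3 counts is 0.146 to 0.163 CPM per sample, and covers counting error only. Pairs of samples of a group differed by more than sampling noise (chi-square per degree of freedom 6.21 to 90.5). Log2 CPM used a prior count of 2. Tests were tried on simulated counts.

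The 10 genes, the lists and the pairs were chosen with earlier results of these data known. Genes were named by a rule: the 10 genes, both genes of each pair, line markers, up to 2 called genes per direction with the lowest p in each list, and the 5 genes of nearest profile. Other named genes were chosen after their values were seen. The values of 1 gene that the rule names are not reported here. Alternatives were DESeq2 1.42.0, RLE factors, library size only, no filter, at least 1 CPM in 3 samples, the replicate number as a block, length trends removed by lowess (span 0.4), limma 3.58.1 on log2 FPKM (pseudocount 1 or 0.1, for genes over 1 FPKM in 3 or more samples, and pseudocount 1 unfiltered), and each sample left out in turn.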

Additional observations from a re-analysis of the deposited data

How the results depend on the processing

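All 10 genes were called lower in all 16 alternatives, with adjusted p-values up to 0.0079 (CDC25A with the replicate block). With each sample left out in turn, the log2 fold change stayed between −2.97 and −2.86 for CCNF and between −0.89 and −0.75 for WEE1. Over all 16 alternatives CDC25A ranged from −1.04 to −0.72, CDC20 from −1.15 to −0.91 and WEE1 from −1.006 to −0.75. The 2-fold limit was thus not always reached by CDC20. With library size only, CDC25A (−1.04) and WEE1 (−1.006) passed it. A block for the replicate number gave −2.93 for CCNF and −0.86 for WEE1, and the calls of the 10 genes did not change. Samples that share a number did not deviate together (correlations 0.0084, −0.40 and −0.37 for numbers 1, 2 and 3). No C sample correlated best with the D sample of its own number, and the number was not treated as pairing. These correlations cannot exclude pairing, because deviations were centred within each group and the D samples differed among themselves with gene length. The sign of the change in each of the 10 pairs was the same under all of its alternatives.

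Counts in the lists moved more, and the cause was not tested. With library size only, 0 APC/C targets and 5 other cyclins and CDKs were called higher and 9 S phase genes lower. Without the filter on low counts 1 APC/C target was called higher. With the replicate block, 3 transcription factors and 5 other cyclins and CDKs were called lower and 0 APC/C targets higher. With length trends removed, 7 CDK1 regulators were called higher and 8 S phase genes lower. On log2(FPKM + 1) and on log2(FPKM + 0.1), 0 APC/C targets and 3 other cyclins and CDKs were called higher and 10 S phase genes lower, and without the FPKM filter these were 0, 3 and 8, with 5 transcription factors higher. With samples left out in turn, the number called ranged from 3 to 5 for transcription factors lower, 0 to 2 for APC/C targets higher, 4 to 9 and 4 to 11 for other cyclins and CDKs lower and higher, and 4 to 8 for S phase genes lower. Over all genes, the 2 filtered FPKM scales tested 10563 genes, against 12682 in the main fit. They called 2213 and 2209 higher, against 3393, and 3908 and 3877 lower, against 3509. The log2 fold change of CD68, not called, turned to 0.0020 in DESeq2, 0.012 with RLE factors and 0.050 without D replicate 2 (range with samples left out −0.046 to 0.050). Neither ANAPC4 nor ANAPC5, APC/C subunits near 0, was called in any of these. ANAPC4 turned to 0.0080 with RLE factors and ranged from −0.15 to 0.078 with samples left out, and ANAPC5 turned to −0.049 with library size only and on the FPKM scales (−0.049, −0.050 and −0.049).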
